A study of Mus musculus with 6 samples.

Results

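The chemokine family was read in 6 RNA-seq libraries of the kidney fibroblast line RFB. Of these, 3 libraries came from cells given TGF-β plus CXCL10, with CXCL10 taken from a volume that the sample titles give as 5 µl without a concentration, and 3 from cells given TGF-β alone. TGF-β, the cytokine used to push fibroblasts toward a scar-forming state, is thus shared by both groups, and no untreated cells were analysed here. The series design text speaks of SUV39H1 knockdown derivatives, but the sample labels name no knockdown, and neither the origin of the line nor its clonality is given. The labels call the organism mouse, while all 20323 rows of the deposited table carry human Ensembl identifiers, so every value below is a value on a human gene model. Members were all rows whose symbol starts with CCL, CXCL, CX3CL, XCL, CCR, CXCR, CX3CR, XCR or ACKR followed directly by a digit. This gave 66 rows of the 20323, made up of 44 ligands, 18 signalling receptors and 4 atypical receptors.

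Chemokines are small secreted proteins that direct the movement of cells, chiefly leukocytes, along gradients held on the heparan sulfate of cell surfaces and matrix. Their receptors couple to inhibitory G proteins, while the atypical receptors bind chemokines without that coupling and mainly take them up and degrade them. CXCL10 acts mainly through CXCR3. In kidney fibrosis, fibroblasts are known both as a source of chemokines and as cells that can respond to them.

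With CXCL10, the fibroblasts had less RNA of the scavenger receptor ACKR3 and more of the neutrophil attractant CXCL8. CXCL1 was higher in same-numbered pairs 1 and 2 of the libraries and nearly level in pair 3, at 1.08 times. ACKR3 stood at 21.9 ± 6.49 CPM (counts scaled to library size) in the CXCL10 libraries and 43.2 ± 11.8 CPM in the TGF-β libraries. CXCL8 stood at 18.1 ± 18.5 CPM in the CXCL10 libraries and 4.36 ± 3.0 CPM in the TGF-β libraries (SD, n = 3 each). The groups overlapped for CXCL8, with TGF-β replicate 1 (7.82 CPM) above CXCL10 replicates 2 and 3 (7.59 and 7.12 CPM). All 3 genes passed the edgeR test when libraries were paired by their replicate number, a pairing that the labels do not state. CXCL1 did not pass by DESeq2 with the pairing, nor in edgeR without replicate 1 in both groups and without pairing. Over all 6 libraries without the pairing 0 of the 6 tested members passed, and ACKR3 and CXCL8 passed without it once replicate 1 was left out of the TGF-β group or of both groups. Of the other members, CCL28 was low but present in every library and most were near or below the limit of detection in both groups, CXCL10 and its receptor CXCR3 included.

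The libraries held 12838106 to 14470051 counts in the CXCL10 group and 13068015 to 15587409 in the TGF-β group. Replicate 1 stood apart from replicates 2 and 3 in both groups. Divided by its degrees of freedom, the chi-square between replicate 1 and each of the others was 8.44 and 8.81 in the CXCL10 group and 16.2 and 17.4 in the TGF-β group, against 2.79 in the CXCL10 group and 3.07 in the TGF-β group between replicates 2 and 3. Results that rest on replicate 1 are therefore given with and without it. The labels do not say whether replicates were separate cultures, so p-values measure only the spread between these libraries, which may be technical. Fibroblast markers were abundant, with means of 32397 CPM for COL1A1, 3313 CPM for VIM and 418 CPM for PDGFRB in the CXCL10 libraries and 35706, 2558 and 451 CPM for these genes in the TGF-β libraries. The 15 leukocyte markers together held 44.6 to 50.9 CPM in the CXCL10 libraries and 44.2 to 50.05 CPM in the TGF-β libraries, most of it the lysosomal gene CD68, while CD3D, CD3E, CD8A, MS4A1 and NKG7 had 0 counts and the pan-leukocyte gene PTPRC 24 counts in all. Of the kidney epithelial markers, PAX2, LRP2, UMOD and AQP2 had 0 counts, whereas the keratins KRT8 and KRT18 stood at 2043 and 1280 CPM in the CXCL10 libraries and 2013 and 1099 CPM in the TGF-β libraries. PAX8 and AQP1 stood at 7.66 and 11.4 CPM in the CXCL10 libraries and 6.10 and 12.8 CPM in the TGF-β libraries. The 7 endothelial markers together held 48.4 to 52.2 CPM in the CXCL10 libraries and 51.8 to 54.3 CPM in the TGF-β libraries, most of it TEK, while CDH5 had 5 counts in all and EMCN 0. With libraries paired by number, 3 of 13 fibroblast marker rows were called higher and 4 lower, beside 9.71% higher and 8.04% lower over all tested genes. The epithelial cadherin CDH1 stood at 0.703 CPM in the CXCL10 libraries and 2.41 CPM in the TGF-β libraries. The endothelial factor ERG stood at 0.569 CPM in the CXCL10 libraries and 1.88 CPM in the TGF-β libraries. On 3 to 49 counts per library, both were lower in every CXCL10 library, as were 11.2% of all tested genes. With pairing both were called lower (edgeR, adjusted p = 0.00898 and 0.0483), and KRT18 was called higher (adjusted p = 0.0313). Without pairing, CDH1, ERG and KRT18 did not pass (edgeR, adjusted p = 0.176, 0.161 and 0.247). The part of these marker changes in the chemokine results was not tested. In bulk RNA, fewer cells that express a gene and less RNA per cell cannot be told apart.

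Of the 66 members, 35 had at least 1 count in any library and 31 had none. A count was found on 53.0% of members, against 77.2% of all rows of the table. Only 20 members reached 10 counts over all 6 libraries together, 6 had more than 3 counts in every library, and 6 passed the expression filter of the test, which is 9.09% of members against 58.9% of all rows. The 6 tested members were ACKR3, CXCL8, CXCL1, CCL28, CCL26 and CCR10. CCL26 and CCR10 passed narrowly, with 56 and 51 counts in all. These sets of 6 are not the same. CCL26 had 2 counts in TGF-β replicate 3 and CCR10 0 in CXCL10 replicate 2, while CXCL5 and ACKR2 exceeded 3 counts in every library but were not tested. Between 20 and 23 members had a count in each CXCL10 library and between 24 and 26 in each TGF-β library. All rows of the table showed the same order. Between 13939 and 13993 rows had a count in each CXCL10 library and between 14023 and 14224 in each TGF-β library.

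**Figure D1:**
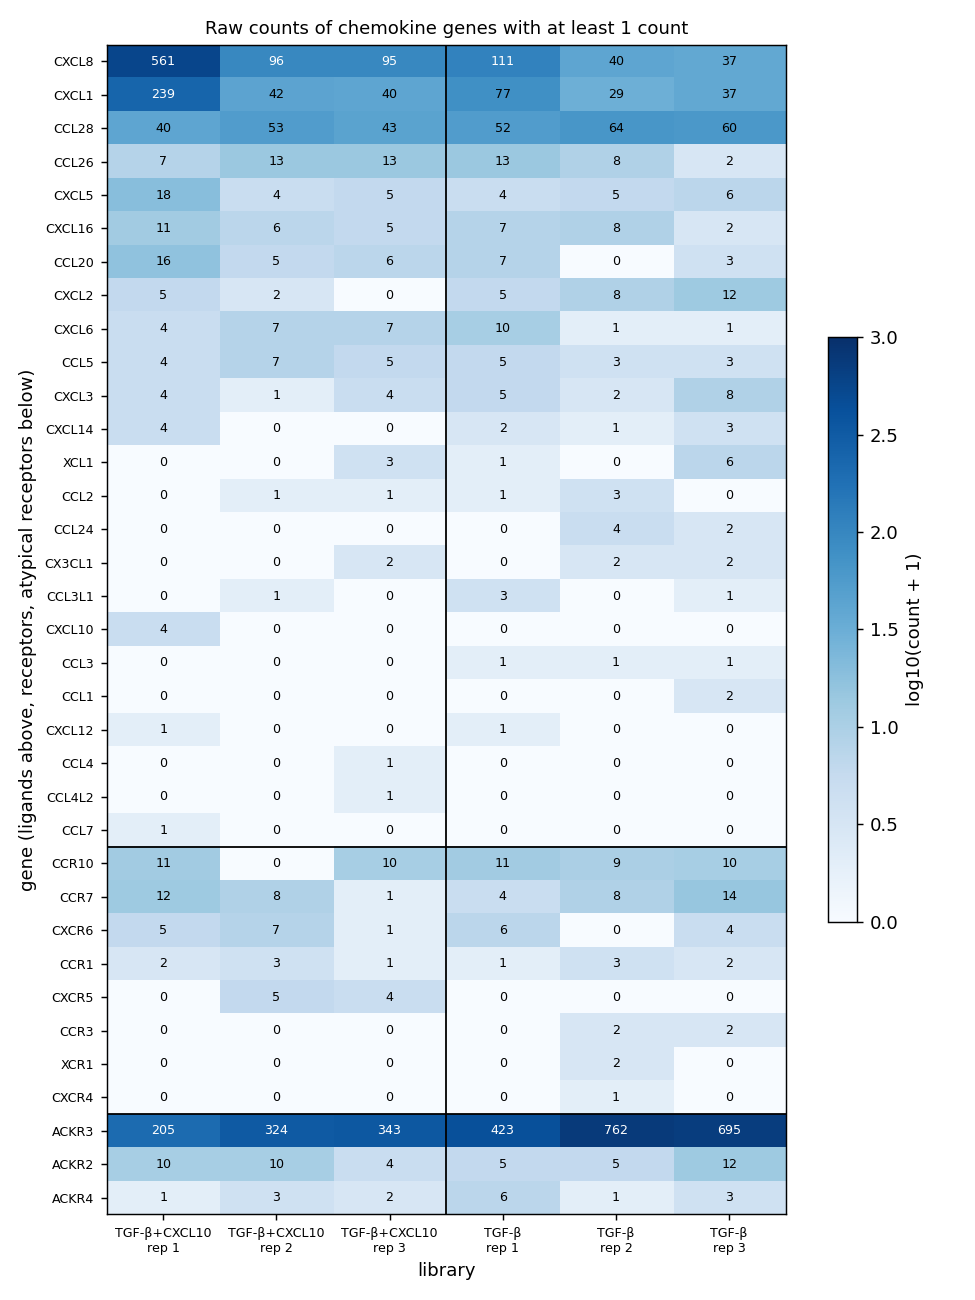
Raw count of each of the 35 chemokine genes with at least 1 count (rows) in each of the 6 libraries (columns), coloured by log10(count + 1) and grouped into ligands, receptors and atypical receptors. ACKR3, CXCL8, CXCL1 and CCL28 hold most counts, and most other cells of the grid hold under 10.

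CXCL10 itself was hardly transcribed. It had 4 counts in CXCL10 replicate 1 and 0 in the other CXCL10 libraries, and 0 in all 3 TGF-β libraries. A count of 0 allows up to 3 counts, equal to 0.211 to 0.237 CPM in a CXCL10 library and 0.187 to 0.225 CPM in a TGF-β library, and this limit covers counting error only. Its receptor CXCR3 had 0 counts in every library and so lies under the same limits. Over all 6 libraries together, 3 counts equal 0.0358 CPM. The other interferon-induced ligands of CXCR3, CXCL9 and CXCL11, also had 0 counts in all libraries. Transcripts of the ligand added to the cells and of its signalling receptor were thus not detectable, or nearly so, at this depth.

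The remaining silent members were mostly genes known from leukocytes, lymphoid organs or mucosa. Among ligands with 0 counts were the homeostatic lymphoid chemokines CCL19, CCL21 and CXCL13, the thymus and gut chemokine CCL25, the skin chemokine CCL27 and the mucosal CXCL17. The T helper type attractants CCL17 and CCL22, the eotaxin CCL11, the monocyte attractants CCL8 and CCL13, and CCL14, CCL15, the CCL15-CCL14 readthrough, CCL16, CCL18, CCL23 and XCL2 were silent as well. Among receptors, 0 counts were found on CCR2, CCR4, CCR6, CCR8, CCR9, CXCR1, CXCR2 and CX3CR1, and on the atypical receptor ACKR1, which is known from red cells and venular endothelium.

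Several chemokines usually associated with fibroblasts were also at the floor. The monocyte attractant CCL2 had 0, 1 and 1 counts in the CXCL10 libraries and 1, 3 and 0 in the TGF-β libraries. CXCL12, the stromal ligand shared by CXCR4 and ACKR3, had 1 count in CXCL10 replicate 1 and 1 in TGF-β replicate 1, and 0 elsewhere. CXCL14 had 4, 0 and 0 counts in the CXCL10 libraries and 2, 1 and 3 in the TGF-β libraries. Over the CXCL10 libraries together, CCL2 and CXCL12 held 0.0497 CPM and 0.0249 CPM, and over the TGF-β libraries 0.0918 CPM and 0.0230 CPM.

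ACKR3, formerly CXCR7, binds CXCL12 and CXCL11 and removes them from the surroundings of the cell. It had 205, 324 and 343 counts in CXCL10 replicates 1 to 3 and 423, 762 and 695 in TGF-β replicates 1 to 3. Scaled by library size these were 14.4, 25.6 and 25.7 CPM in the CXCL10 libraries and 29.8, 47.5 and 52.2 CPM in the TGF-β libraries. Every CXCL10 library lay below every TGF-β library, and replicate 1 was the lowest of its group in both. Of all 11970 tested genes, 11.2% were likewise lower in every CXCL10 library. Within same-numbered pairs the CXCL10 library held 0.484, 0.540 and 0.492 of the level of its TGF-β partner. The pairs thus differed by a similar factor, although the level itself differed between replicates.

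The log2 change of ACKR3 was -0.98 in both fits, with a standard error of 0.25 without the pairing and 0.08 with it. The paired fit called it (adjusted p = 9.87e-06, edgeR quasi-likelihood test with Benjamini-Hochberg adjustment over all tested genes), and the unpaired fit did not (adjusted p = 0.161). An exact two-sided permutation test of the log2 levels gave p = 0.1, which is the smallest that 3 against 3 libraries allow. Without replicate 1 in both groups and without pairing the change was -0.96 and passed (adjusted p = 1.52e-08), where 10% of all tested genes were called lower. Without CXCL10 replicate 1 alone and without pairing, 0 genes passed, so ACKR3 did not. Over its 21 alternatives the change ranged from -1.19 to -0.75. It passed in 9 of them, each with the pairing or without TGF-β replicate 1, and the adjusted p reached 0.609. By the authors' deposited table, ACKR3 had a log2 ratio of -1.12 with an adjusted p of 0.00888, the 1 member under 0.05 there, where 0.618% of rows with a count were called lower. The change lay below that of all but 1.13% of tested genes.

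ACKR3 dominated the receptor transcripts of these cells. It held 83.3%, 90.0% and 93.7% of all counts on receptors in the CXCL10 libraries and 92.8%, 96.1% and 93.7% in the TGF-β libraries. Receptors other than ACKR3 together held only 41, 36 and 23 counts in the CXCL10 libraries and 33, 31 and 47 in the TGF-β libraries, so the groups overlapped. CXCR4, which signals in response to CXCL12, had 1 count in TGF-β replicate 2 and 0 in all other libraries. Per transcript length, ACKR3 was at 14.0 ± 3.17 FPKM in the CXCL10 libraries and 30.4 ± 10.5 FPKM in the TGF-β libraries (SD, n = 3 each).

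**Figure D2:**
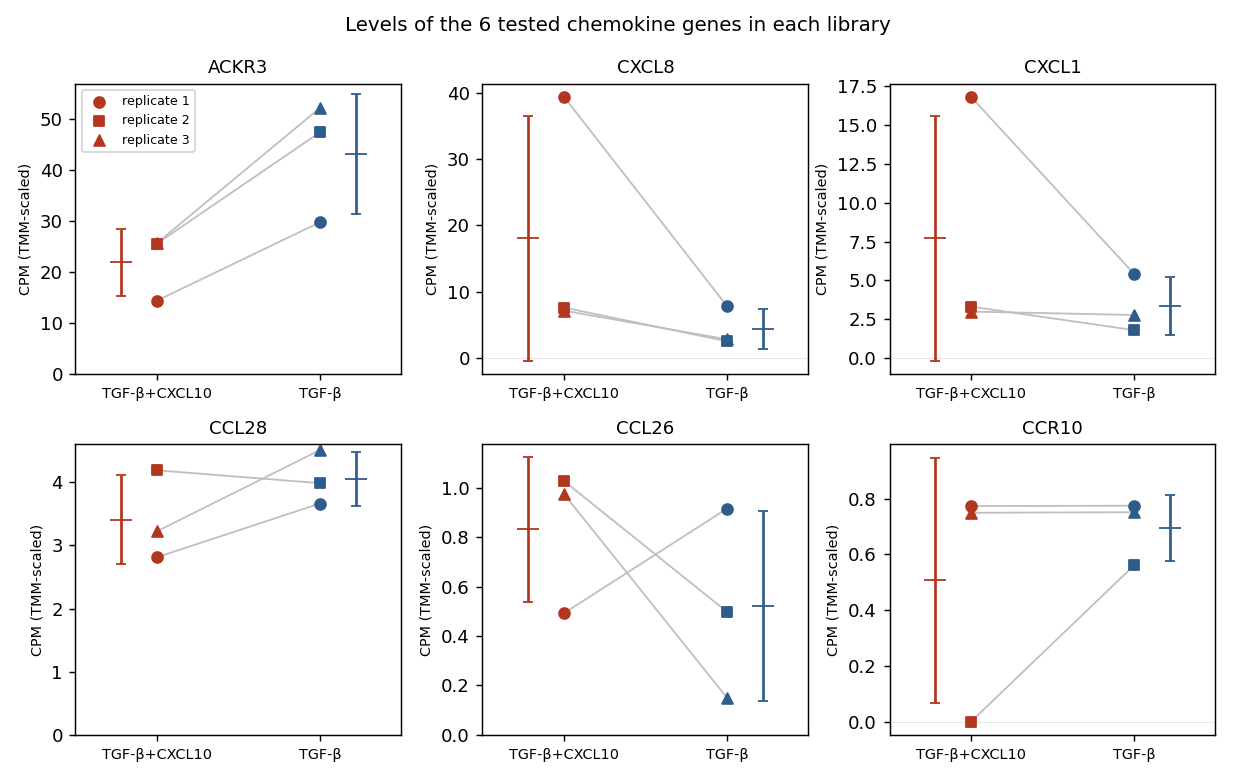
Level in CPM (y axis) of the 6 tested chemokine genes in the 3 TGF-β+CXCL10 libraries (left, red) and the 3 TGF-β libraries (right, blue). Marker shapes give the replicate number, grey lines join same-numbered libraries, and crosses with bars give the mean and SD. ACKR3 is lower in each CXCL10 library than in any TGF-β library, while for CXCL8 TGF-β replicate 1, at 7.82 CPM, lies above CXCL10 replicates 2 and 3.

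CXCL8, or interleukin-8, attracts neutrophils through CXCR1 and CXCR2. It had 561, 96 and 95 counts in CXCL10 replicates 1 to 3 and 111, 40 and 37 in TGF-β replicates 1 to 3. This equals 39.4, 7.59 and 7.12 CPM in the CXCL10 libraries and 7.82, 2.49 and 2.78 CPM in the TGF-β libraries. Replicate 1 was far above replicates 2 and 3 in both groups, at 5.36 times their mean in the CXCL10 group and 2.97 times in the TGF-β group. TGF-β replicate 1 lay above CXCL10 replicates 2 and 3, so the groups overlapped. Within same-numbered pairs the CXCL10 library held 5.05, 3.05 and 2.56 times the level of its TGF-β partner.

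The paired fit gave CXCL8 a log2 change of 1.90 (SE 0.19, adjusted p = 2.60e-05) and the unpaired fit 2.06 (SE 0.69, adjusted p = 0.169). CXCL8 rose also without replicate 1 in both groups, by 1.48 (SE 0.28, adjusted p = 0.000165 without pairing). Without CXCL10 replicate 1 alone and without pairing, the log2 difference was 0.76 (adjusted p = 0.540), and without TGF-β replicate 1 alone it was 2.79 (adjusted p = 0.0219). The change in the unpaired fit was larger than that of 99.9% of tested genes. The exact two-sided permutation test of the log2 levels gave p = 0.3 for CXCL8. In the authors' deposited table the log2 ratio was 2.02 and the adjusted p 0.296. CXCL8 is a human gene with no mouse counterpart of that name: the mouse RefSeq annotation holds no gene with the symbol of 14 of the 66 members, and CXCL8 was the 1 tested member among them.

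CXCL1 belongs with CXCL8 to the ligands of CXCR2 that carry the Glu-Leu-Arg motif before their first cysteines and draw in neutrophils. It had 239, 42 and 40 counts in CXCL10 replicates 1 to 3 and 77, 29 and 37 in TGF-β replicates 1 to 3, or 16.8, 3.32 and 3.0 CPM in the CXCL10 libraries and 5.42, 1.81 and 2.78 CPM in the TGF-β libraries. Replicate 1 was again the highest of each group, and the groups overlapped. The pairs differed by factors of 3.10, 1.84 and 1.08, so pair 3 showed almost no difference. CXCL1 rose in the paired edgeR fit (log2 change 1.002, SE 0.27, adjusted p = 0.0231). It did not pass unpaired (1.23, SE 0.65, adjusted p = 0.315), by DESeq2 with the pairing (0.93, adjusted p = 0.0775) or without replicate 1 in both groups (0.47, adjusted p = 0.423), and over its 21 alternatives the adjusted p ranged from 0.000667 to 0.961. For CXCL1 the exact two-sided permutation test of the log2 levels gave p = 0.4.

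The other CXCR2 ligands were scarce. CXCL5 had 18, 4 and 5 counts in the CXCL10 libraries and 4, 5 and 6 in the TGF-β libraries, with the single high value again in CXCL10 replicate 1. CXCL6 had 4, 7 and 7 counts in the CXCL10 libraries and 10, 1 and 1 in the TGF-β libraries. CXCL2 had 5, 2 and 0 counts in the CXCL10 libraries and 5, 8 and 12 in the TGF-β libraries, the opposite order to CXCL1. CXCL3 had 4, 1 and 4 counts in the CXCL10 libraries and 5, 2 and 8 in the TGF-β libraries. The coding sequences of CXCL1, CXCL2 and CXCL3 are nearly identical, and how reads shared among them were counted is not given in the sources used here, so their individual values are uncertain. Their summed counts were 248, 45 and 44 in the CXCL10 libraries and 87, 39 and 57 in the TGF-β libraries, with CXCL10 replicates 2 and 3 below TGF-β replicates 1 and 3.

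These 6 ligands made up 90.4%, 63.9% and 65.4% of all ligand counts in the CXCL10 libraries and 69.5%, 47.5% and 53.7% in the TGF-β libraries. Both receptors that bind them, CXCR1 and CXCR2, had 0 counts throughout. Ligands other than CXCL8 and CXCL1 together held 119, 100 and 96 counts in the CXCL10 libraries and 117, 110 and 114 in the TGF-β libraries. Outside CXCL8 and CXCL1, the summed ligand counts thus overlapped between the groups.

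**Figure D3:**
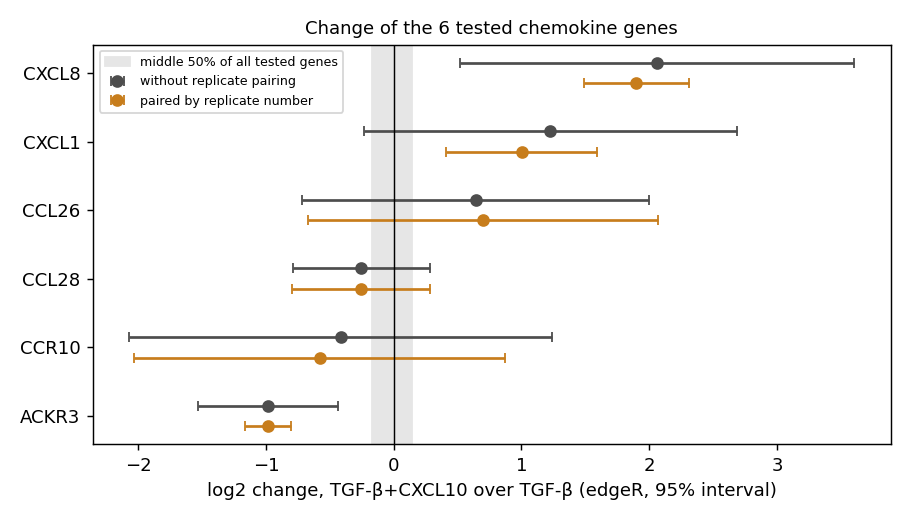
Log2 change with its 95% interval (x axis) of the 6 tested chemokine genes, TGF-β+CXCL10 over TGF-β, without pairing (grey) and paired by replicate number (orange). The shaded band holds the middle 50% of all tested genes. For ACKR3 the interval runs from -1.53 to -0.43 without pairing and from -1.17 to -0.80 with it, and for CXCL8 from 0.52 to 3.60 without pairing and from 1.49 to 2.31 with it.

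In total, the paired fit called 2 members higher (CXCL8 and CXCL1) and 1 lower (ACKR3) of 6 tested, while over all 11970 tested genes it called 9.71% higher and 8.04% lower. With so few members tested, this count is given beside the background without a test. The unpaired fit called 0 of the 6 members and 0% of all genes (smallest adjusted p = 0.161, edgeR), although 2449 genes, ACKR3 and CXCL8 among them, had an unadjusted p under 0.05. DESeq2 without pairing called 0 members, with 1.44% of genes higher and 1.36% lower, and with pairing it called CXCL8 higher and ACKR3 lower, with 5.71% of genes higher and 3.79% lower. Without replicate 1 in both groups and without pairing, edgeR called the same 2 genes, with 11.9% of genes higher and 10% lower, and without TGF-β replicate 1 alone again these 2, with 10.8% higher and 8.79% lower. The remaining 3 tested members passed in none of the 21 alternatives.

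CCL28, a mucosal chemokine that binds CCR10 and CCR3, was, beside CXCL8 and CXCL1, the only ligand with more than 10 counts in every library. It had 40, 53 and 43 counts in the CXCL10 libraries and 52, 64 and 60 in the TGF-β libraries, or 3.41 ± 0.71 CPM in the CXCL10 libraries and 4.05 ± 0.43 CPM in the TGF-β libraries (SD, n = 3 each). The log2 difference was -0.25 without pairing (95% interval -0.79 to 0.28, adjusted p = 0.574) and -0.26 with it (-0.79 to 0.28, adjusted p = 0.538). CCR10 had 11, 0 and 10 counts in the CXCL10 libraries and 11, 9 and 10 in the TGF-β libraries. Apart from CXCL10 replicate 2 these values were nearly alike, and the paired log2 difference of -0.58 had a 95% interval of -2.03 to 0.87 (adjusted p = 0.611). CCR3 had 0 counts in the CXCL10 libraries and 0, 2 and 2 in the TGF-β libraries.

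CCL26, or eotaxin-3, attracts eosinophils through CCR3 and is induced by interleukin-4 and interleukin-13. It had 7, 13 and 13 counts in the CXCL10 libraries and 13, 8 and 2 in the TGF-β libraries. The groups overlapped, and pair 1 ran against pairs 2 and 3. The log2 difference was 0.64 without pairing (95% interval -0.71 to 2.001, adjusted p = 0.572) and 0.70 with it (-0.67 to 2.07, adjusted p = 0.505). The related eotaxin CCL24 had 0 counts in the CXCL10 libraries and 0, 4 and 2 in the TGF-β libraries.

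Of the 29 members with a count that did not pass the filter, none exceeded 18 counts in a library, and their summed counts were 102, 70 and 53 in the CXCL10 libraries and 74, 60 and 89 in the TGF-β libraries. With the filter removed, 0 of the 29 passed in either edgeR fit, and 1 had an unadjusted p under 0.05 in edgeR's quasi-likelihood test, CXCR5 without pairing (adjusted p = 0.246). CXCR5, the B cell receptor for CXCL13, had 0, 5 and 4 counts in the CXCL10 libraries and 0 in all TGF-β libraries. CCL20, the ligand of CCR6, had 16, 5 and 6 counts in the CXCL10 libraries and 7, 0 and 3 in the TGF-β libraries (adjusted p = 0.458 unpaired and 0.365 paired, with the filter removed). Replicate 1 was the highest of its group for CCL20, as it was for CXCL8 and CXCL1.

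Among receptors below the filter, CCR7, which guides dendritic and T cells to lymph nodes, had 12, 8 and 1 counts in the CXCL10 libraries and 4, 8 and 14 in the TGF-β libraries. ACKR2, a scavenger of inflammatory CC chemokines, had 10, 10 and 4 counts in the CXCL10 libraries and 5, 5 and 12 in the TGF-β libraries. ACKR4, the scavenger of CCL19, CCL21 and CCL25, had 1, 3 and 2 counts in the CXCL10 libraries and 6, 1 and 3 in the TGF-β libraries. All of these overlapped between the groups. CXCL16, a membrane-anchored chemokine, had 11, 6 and 5 counts in the CXCL10 libraries and 7, 8 and 2 in the TGF-β libraries, and its receptor CXCR6 had 5, 7 and 1 in the CXCL10 libraries and 6, 0 and 4 in the TGF-β libraries. CXCL16 and CXCR6 thus both exceeded 20 counts in all (39 and 23), as did CCL28 and CCR10.

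CCL5, a T cell and monocyte attractant, had 4, 7 and 5 counts in the CXCL10 libraries and 5, 3 and 3 in the TGF-β libraries, and its receptor CCR1 had 2, 3 and 1 in the CXCL10 libraries and 1, 3 and 2 in the TGF-β libraries. XCL1 had 0, 0 and 3 counts in the CXCL10 libraries and 1, 0 and 6 in the TGF-β libraries. The remaining detected members, CX3CL1, CCL3L1, CCL3, CCL1, CCL4, CCL4L2, CCL7 and XCR1, had 1 to 6 counts over all 6 libraries. CCL3 and CCL3L1, and CCL4 and CCL4L2, are near-identical copies between which reads cannot be assigned with certainty.

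Per transcript length, the order of the family differed between libraries. In CXCL10 replicate 1, CXCL8 led with 23.6 FPKM, followed by CXCL1 with 14.1 FPKM and ACKR3 with 10.5 FPKM. In every other library ACKR3 led, with 14.9 and 16.6 FPKM in CXCL10 replicates 2 and 3 and 18.8, 33.0 and 39.3 FPKM in the TGF-β libraries. CXCL8 averaged 10.8 ± 11.1 FPKM in the CXCL10 libraries and 2.68 ± 1.79 FPKM in the TGF-β libraries, and CXCL1 6.46 ± 6.59 FPKM in the CXCL10 libraries and 2.86 ± 1.56 FPKM in the TGF-β libraries (SD, n = 3 each). Within each CXCL10 library CXCL8 lay above CXCL1, with 4.55 against 2.79 FPKM in replicate 2 and 4.27 against 2.52 FPKM in replicate 3. In the TGF-β libraries CXCL8 had 4.74, 1.56 and 1.72 FPKM and CXCL1 4.60, 1.59 and 2.41 FPKM, so their order differed between libraries. CCL28 and CCL26 lay lower, at 1.51 and 1.52 FPKM in the CXCL10 libraries and 2.01 and 1.07 FPKM in the TGF-β libraries, and CCR10 lowest of the tested members, at 0.276 FPKM in the CXCL10 libraries and 0.508 FPKM in the TGF-β libraries.

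**Figure D4:**
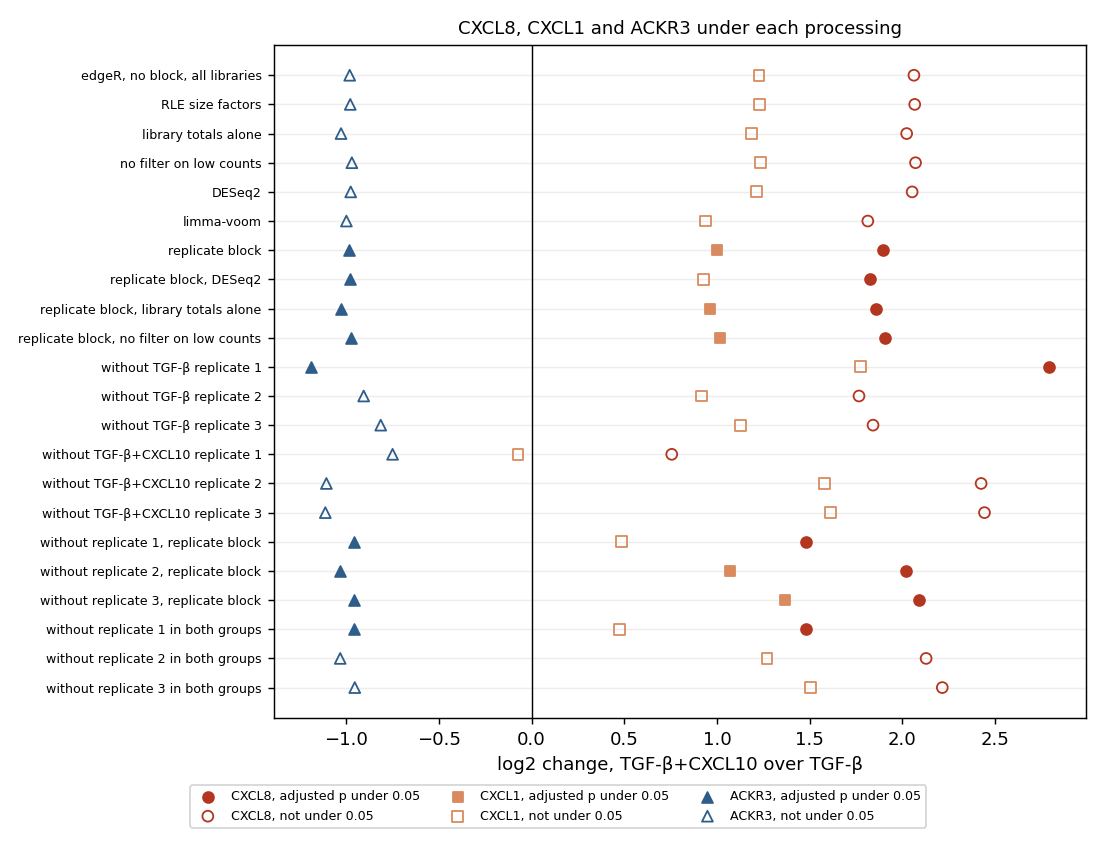
Log2 change (x axis) of CXCL8, CXCL1 and ACKR3 under each processing (rows), TGF-β+CXCL10 over TGF-β. Filled markers passed an adjusted p of 0.05. ACKR3 stays between -1.19 and -0.75, CXCL8 between 0.76 and 2.79 and CXCL1 between -0.07 and 1.78.

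Of 9 tested genes that act with chemokines but carry other symbols, 1 rose and 1 fell with pairing, a share of 22.2%, against 9.71% higher and 8.04% lower over all tested genes. The list median was 0.11 beside -0.01 for all tested genes. RARRES2, the precursor of the chemoattractant chemerin, had 14.2, 17.3 and 20.2 CPM in the CXCL10 libraries and 21.9, 28.0 and 30.4 CPM in the TGF-β libraries. It fell in the paired fit (log2 change -0.64, SE 0.10, adjusted p = 0.000574; 0.161 unpaired), the groups did not overlap (as for the 11.2% of tested genes lower in every CXCL10 library), and DESeq2 called it without pairing (adjusted p = 0.0202). CMKLR1, the receptor of chemerin, had 26.3, 16.8 and 20.6 CPM in the CXCL10 libraries and 18.9, 10.3 and 11.9 CPM in the TGF-β libraries. It rose in the paired fit (0.64, SE 0.11, adjusted p = 0.00151; 0.188 unpaired), with TGF-β replicate 1 above CXCL10 replicate 2. For both genes, replicate 1 of the TGF-β group was its library nearest to the CXCL10 group.

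MIF, a cytokine that also binds CXCR2, CXCR4 and ACKR3, was at 82.0 ± 3.22 CPM in the CXCL10 libraries and 78.0 ± 3.33 CPM in the TGF-β libraries (SD, n = 3 each), with a paired log2 difference of 0.07 (adjusted p = 0.480). ADM, whose peptide adrenomedullin is also scavenged by ACKR3, was at 22.8 ± 1.42 CPM in the CXCL10 libraries and 20.5 ± 1.81 CPM in the TGF-β libraries (0.15, adjusted p = 0.337). Neither passed, nor did the chemokine-like factor CKLF (0.34), the orphan receptor GPR75 (0.66) or CD74, a MIF receptor (0.11), with paired adjusted p values of 0.292, 0.0973 and 0.845. The platelet chemokines PF4 and PPBP had 0 counts, and CCRL2, a chemerin-binding receptor, 1 count in CXCL10 replicate 1.

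Chemokine receptor signalling had 24 tested genes, of which the paired fit called 6 higher and 2 lower and left 16 uncalled, beside 9.71% higher and 8.04% lower over all tested genes (median 0.07, beside -0.01 for all tested genes). The inhibitory G protein subunits GNAI2 and GNAI3 rose by 0.24 each (adjusted p = 0.00303 and 0.0105), and the β subunit GNB1 by 0.22 (adjusted p = 0.00451). RAC2, a GTPase of leukocyte migration, rose by 0.69 (adjusted p = 0.00144), with 25.2, 21.2 and 19.4 CPM in the CXCL10 libraries and 18.5, 13.0 and 9.995 CPM in the TGF-β libraries. For these 4 genes every CXCL10 library lay above every TGF-β library, as for 11.1% of all tested genes. None of the 4 passed in edgeR over all 6 libraries without pairing (adjusted p = 0.161 to 0.174). The other inhibitory subunit of the list, GNAI1, went the other way with pairing (-0.19) and did not pass (edgeR, adjusted p = 0.131). JAK2 and PREX1, the 2 genes called lower, had paired changes of -0.38 and -0.36 (edgeR, adjusted p = 0.0310 and 0.0177). Of the whole list, DESeq2 without pairing called 1 gene higher, and edgeR without pairing called 6 higher and 2 lower without TGF-β replicate 1 and 5 higher and 2 lower without replicate 1 in both groups. Over all tested genes these fits called, in this order, 1.44%, 10.8% and 11.9% higher and 1.36%, 8.79% and 10% lower.

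With pairing, 3 of 16 tested proteases that process chemokines rose and 3 fell, beside the same 9.71% and 8.04% of all tested genes (median 0.01). DPP4, which trims the amino terminus of CXCL10 and CXCL12, had 330, 368 and 365 CPM in the CXCL10 libraries and 363, 422 and 403 CPM in the TGF-β libraries and fell by 0.16 (log2, adjusted p = 0.0280), with overlapping groups. The urokinase PLAU (0.87), the DPP4 relative DPP9 (0.44) and the proprotein convertase FURIN (0.39) rose, and ADAM17, a sheddase of membrane proteins, fell by 0.25. Their paired adjusted p values were 9.87e-06, 0.000192, 0.000269 and 0.0256. In edgeR over all 6 libraries without pairing these 5 genes missed the threshold, at 0.161 to 0.258. Of the whole list, DESeq2 without pairing called 2 genes higher, and edgeR without pairing called 3 higher and 3 lower without TGF-β replicate 1 and 4 higher and 5 lower without replicate 1 in both groups. The shares of all tested genes in these fits were, in this order, 1.44%, 10.8% and 11.9% higher and 1.36%, 8.79% and 10% lower.

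Heparan sulfate, which holds chemokines at the cell surface, had 16 tested genes, of which 2 rose and 3 fell with pairing (median 0.00), against 9.71% higher and 8.04% lower over all tested genes. The chain-elongating enzymes EXT1 and EXTL3 rose by 0.22 and 0.20, while the core proteins SDC2 and GPC1 fell by 0.32 and 0.31 (log2; adjusted p = 0.00911, 0.0378, 0.0156 and 0.00208). The syndecans SDC1 and SDC4 differed by 0.06 and 0.04 and did not pass (adjusted p = 0.735 and 0.692). With DESeq2 and the pairing, 1 gene of the list was higher and 2 were lower, beside 5.71% and 3.79% of all tested genes. Without pairing DESeq2 called 0, and edgeR called 0 over all 6 libraries, 3 without TGF-β replicate 1 and 4 without replicate 1 in both groups. For all tested genes, edgeR called 10.8% higher and 8.79% lower without TGF-β replicate 1. Without replicate 1 in both groups it called 11.9% higher and 10% lower.

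Upstream regulators of chemokine genes had 28 tested members, of which 5 rose and 6 fell with pairing (median -0.04), where 9.71% of all tested genes were called higher and 8.04% lower. NFKBIZ, the NF-κB cofactor known to act on a subset of inflammatory genes, had 15.2, 13.5 and 11.9 CPM in the CXCL10 libraries and 7.75, 5.79 and 6.99 CPM in the TGF-β libraries and rose by 0.99 (SE 0.15, adjusted p = 0.000528). FOSL1, an AP-1 subunit, rose by 0.71 (adjusted p = 0.000289) and the NF-κB subunit NFKB2 by 0.50 (adjusted p = 0.00295). IRF1, an interferon-induced transcription factor that drives CXCL10 itself, fell by 0.61 (log2, adjusted p = 0.00219), with 12.3, 14.2 and 16.3 CPM in the CXCL10 libraries and 16.3, 24.7 and 24.9 CPM in the TGF-β libraries. DESeq2 without pairing called 2 genes of this list higher and 1 lower, and edgeR without pairing 0 over all 6 libraries (0.161 for each gene named here), 9 without TGF-β replicate 1 and 10 without replicate 1 in both groups. Of all tested genes, DESeq2 without pairing called 1.44% higher and 1.36% lower. EdgeR called 10.8% higher and 8.79% lower without TGF-β replicate 1, and 11.9% higher and 10% lower without replicate 1 in both groups. IFNG and IFNB1, the interferons that induce CXCL10, had 0 counts.

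**Figure D5:**
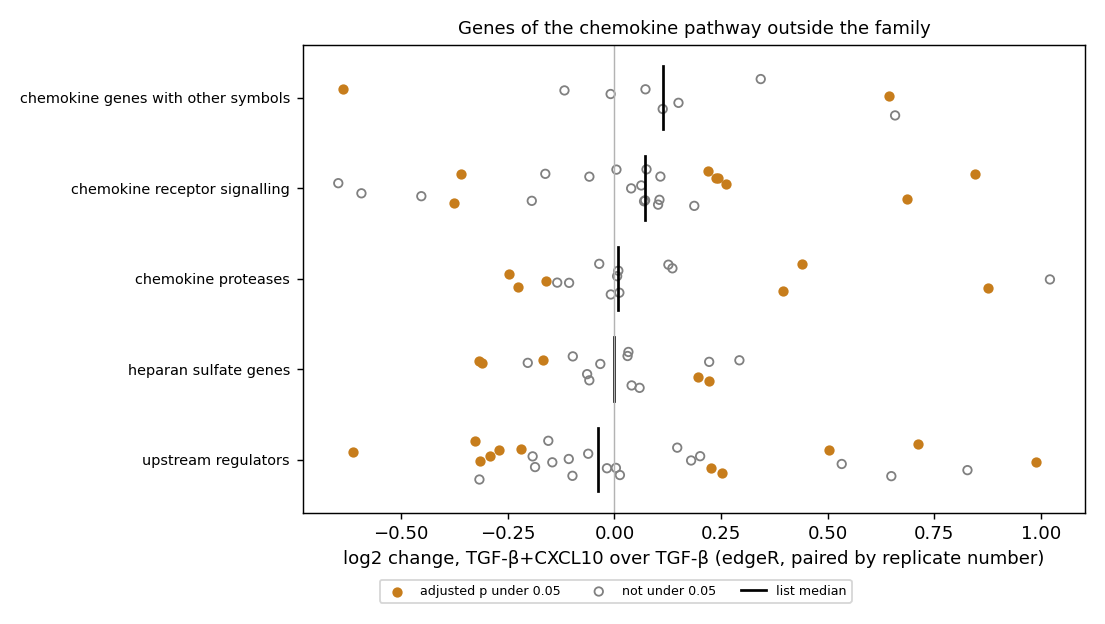
Paired log2 change (x axis), TGF-β+CXCL10 over TGF-β, of each tested gene in 5 lists of chemokine pathway genes outside the family (rows). Filled points passed an adjusted p of 0.05 and vertical bars mark the list medians, which lie between -0.04 and 0.11.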

How the data were processed

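Per the labels' protocols, total RNA was purified on RNeasy columns and libraries were built with a SMARTer kit. Mouse builds (GRCm38, mm10) are named in the submitters' processing notes, yet 0 of the 20323 row identifiers match the mouse annotation. Not given in the sources used here are the aligner, counter, annotation and use of strand, and no coordinates are printed. Per the file headers, the deposited table holds raw counts and FPKM of each library. It also holds group means of FPKM, a log2 ratio, a p-value and an adjusted p-value computed by the authors with a test that is not stated. FPKM is not a fixed multiple of the count: the count per unit of FPKM differed 1.12 to 1.40 times between libraries for the 6 tested members.

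The test on counts was the quasi-likelihood test of edgeR 4.0.16 under R 4.3.3 (TMM scaling, filterByExpr at count 10 and total 15, Benjamini-Hochberg threshold 0.05 over 11970 genes). CPM are counts over TMM-scaled library sizes. Standard errors are the log2 change divided by the root of the test's F. Alternatives used DESeq2 1.42.0 and limma 3.58.1. The test without a replicate block was the principal one. Same-numbered libraries deviated together, with correlations of 0.330, 0.121 and 0.163 across genes, each over 0.1, so paired values are given too. Replicates 2 and 3 of different number also correlated between the groups, at 0.0825 and 0.0803. Pairs of different number that held a replicate 1 lay between -0.223 and -0.165. This pairing comes from the data, not the labels, and rests mainly on replicate 1. Members and lists were chosen with earlier results of these data known. Named genes are every member with a count, up to 4 genes per pathway list with the lowest unpaired p, and genes fixed by name. GNAI1, JAK2 and PREX1 were named in addition because their paired changes were negative. Not every member without counts is reported here by name.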

Additional observations from a re-analysis of the deposited data

How the results depend on the processing

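ACKR3 and CXCL8 kept their direction in all 21 alternatives and passed the threshold in 9 each, and CXCL1 passed in 5. Each pass came from a fit with the replicate block, which was drawn from these data, or without TGF-β replicate 1. The alternatives share the same libraries, so the passes are not independent. Over all 6 libraries without pairing, 0 members and 0 genes passed, also with RLE size factors, library totals, limma-voom or no filter, while DESeq2 called 335 genes and 0 members. With the replicate block edgeR called 2124 genes and 3 members, by library totals alone 2236 and 3, without a filter (added after seeing the data) 2436 and 3, and DESeq2 1138 and 2. Leaving out same-numbered pairs with the block gave 2872 (pair 1), 1344 (pair 2) and 1216 (pair 3) genes and 2 to 3 members. Without the block, leaving out a library or a same-numbered pair (pairs added after seeing the data) gave 0 to 2621 genes and 0 to 2 members. Without TGF-β replicate 1 alone, 2350 genes and 2 members were called, and without any other single library 0.

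Single libraries left out moved CXCL1 between -0.073 (without CXCL10 replicate 1) and 1.78, and CCR10 between -0.84 and 0.14 (without CXCL10 replicate 2). CD74, SDC1 and SDC4, called nowhere, also changed sign. CD74 ranged from -0.10 (without TGF-β replicate 1) to 0.33 and was -0.043 without CXCL10 replicate 1, and -0.23 and -0.24 without the replicate 1 pair with and without the block. SDC1 ranged from -0.0060 (without TGF-β replicate 1) to 0.16. SDC4 ranged from -0.030 (without CXCL10 replicate 1) to 0.082 and was -0.0019 and -0.0029 by library totals without and with the block, and -0.029 and -0.032 without the replicate 1 pair with and without it. The cause was not tested. Depth limits the 29 members below the filter, where 1 count is worth 0.0623 to 0.0790 CPM.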

Other observations

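The ratio of CXCL8 to CXCL1 counts needs no scaling between libraries, and it was chosen after these values were seen. It was 2.35, 2.29 and 2.38 in the CXCL10 libraries and 1.44, 1.38 and 1.0 in the TGF-β libraries, a mean of 2.34 ± 0.05 and 1.27 ± 0.24 (SD, n = 3 each). The groups did not overlap, but because the ratio was picked from these values this is not a test of it. Replicate 1, which held far more of both transcripts, lay within the range of replicates 2 and 3 in the CXCL10 group. In the TGF-β group replicate 1 had the highest ratio. With CXCL1, CXCL2 and CXCL3 summed, because their reads may be shared, the ratio was 2.18 ± 0.07 in the CXCL10 libraries and 0.98 ± 0.32 in the TGF-β libraries (SD, n = 3 each). For this summed ratio replicate 1 was the highest of each group, at 2.26 in the CXCL10 group and 1.28 in the TGF-β group.

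The share of all chemokine family counts that lay on ACKR3 was 17.6%, 54.2% and 57.5% in the CXCL10 libraries and 55.6%, 78.4% and 74.7% in the TGF-β libraries. On CXCL8 it was 48.2%, 16.1% and 15.9% in the CXCL10 libraries and 14.6%, 4.12% and 3.98% in the TGF-β libraries. TGF-β replicate 1 thus divided its family counts between these genes much as CXCL10 replicates 2 and 3 did, while CXCL10 replicate 1 was the library in which CXCL8 outnumbered ACKR3.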
